A study of Mus musculus with 2 samples.

Results

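The 8 genes examined here encode the enzymes that write DNA methylation (Dnmt1, Dnmt3a and Dnmt3b), the factor that guides its upkeep (Uhrf1), the enzymes that erase it (Tet1, Tet2 and Tet3) and a protein that reads it (Mbd2). They are a list of names, 8 of 21536 mouse protein-coding genes. What was measured is trimethylation of histone H3 at lysine 4 (H3K4me3), a mark found at active and poised promoters, by chromatin immunoprecipitation and sequencing (ChIP-seq). Both samples were MEL cells, an immortalized mouse erythroleukaemia line, treated with 2% dimethyl sulphoxide (DMSO) for 5 days. The labels name them biological replicates 1 and 2 of 1 group and give no genotype, age or sex. All values therefore describe DMSO-treated cells of a single line, and untreated cells were not analysed here.

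In DNA methylation, a methyl group is added to cytosine where cytosine precedes guanine (CpG). Dnmt3a and Dnmt3b set the pattern on unmethylated DNA, whereas Dnmt1 copies it onto the new strand after replication, at hemimethylated sites that Uhrf1 binds. The Tet dioxygenases oxidise methylcytosine, which leads to its loss by replication or base repair, and Mbd2 binds methylated CpG and brings in the NuRD chromatin remodelling complex. H3K4me3 and DNA methylation tend to exclude each other, since the Dnmt3 enzymes bind histone H3 that lacks methylation at lysine 4. Tet2 and Dnmt3a are known for recurrent mutations in blood cancers.

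Of the 8 genes, 5 carried the mark at their 5′ end, 7 carried it at the 5′ end or at another annotated start, and Tet1 carried it nowhere. A gene or start was called marked when both replicates had a peak reaching within 1000 bp of it. By that rule 10133 of all 21536 genes, or 47.1%, were marked at the 5′ end, which is the outermost base of the gene in RefSeq. The 5 were Dnmt3b, Uhrf1, Tet2, Tet3 and Mbd2. When any start listed in the RefSeq promoter table counted as well, Dnmt1 and Dnmt3a were added, and the share of all genes was 49.5%. A peak of both replicates anywhere over the gene was found for the same 7 genes and for 57.9% of all genes. The counts among the 8 genes have no test, since there is 1 group and the genes are not replicates of it.

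The windows just upstream of the starts give the sequence beside starts that were marked or unmarked. A marked start has a peak within 1000 bp, so the printed bases need not lie under a peak. The promoter table lists 12 starts for 7 of the 8 genes, and the 250 bases before 7 of these starts are printed, namely those of the 3 unmarked starts and of 4 marked ones. The other 5 marked starts, at ratios of CpG observed to expected from 0.694 to 1.06, are not printed. CpG-poor starts are therefore a larger share of the printed marked starts than of all marked starts of these genes. Each is written 5′ to 3′ on the gene's strand, with every CpG in capitals. Sequences and positions are from RefSeq on GRCm38.p6, the assembly behind mm10, and all positions are 1-based. Dnmt1, Tet1, Tet2 and Tet3 lie on the minus strand, Dnmt3a and Uhrf1 on the plus strand.
Dnmt1 outermost start, unmarked, chr9:20959889-20960138: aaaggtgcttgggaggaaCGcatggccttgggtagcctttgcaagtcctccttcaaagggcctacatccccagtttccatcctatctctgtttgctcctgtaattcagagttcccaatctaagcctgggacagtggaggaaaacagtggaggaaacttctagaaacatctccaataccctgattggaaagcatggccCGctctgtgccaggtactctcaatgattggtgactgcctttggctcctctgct
Dnmt1 inner start, marked, chr9:20952980-20953229: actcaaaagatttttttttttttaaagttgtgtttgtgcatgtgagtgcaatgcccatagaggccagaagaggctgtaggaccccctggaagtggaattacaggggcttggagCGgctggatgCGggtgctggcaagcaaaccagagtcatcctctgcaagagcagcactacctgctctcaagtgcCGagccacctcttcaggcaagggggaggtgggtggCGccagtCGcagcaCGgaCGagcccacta
Uhrf1 first start, marked, chr17:56303087-56303336: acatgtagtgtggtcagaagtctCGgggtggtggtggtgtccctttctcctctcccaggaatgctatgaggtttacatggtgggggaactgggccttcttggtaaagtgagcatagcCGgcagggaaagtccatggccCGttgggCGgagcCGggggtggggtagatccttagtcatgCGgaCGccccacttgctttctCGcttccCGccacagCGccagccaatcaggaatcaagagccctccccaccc
Dnmt3a internal start, marked, chr12:3891494-3891743: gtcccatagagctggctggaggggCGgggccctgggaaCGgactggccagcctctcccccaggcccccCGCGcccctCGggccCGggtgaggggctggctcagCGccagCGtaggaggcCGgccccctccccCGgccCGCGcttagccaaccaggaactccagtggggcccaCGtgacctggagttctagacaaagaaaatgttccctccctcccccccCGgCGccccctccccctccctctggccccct
Tet1 listed start, unmarked, chr10:62887325-62887574: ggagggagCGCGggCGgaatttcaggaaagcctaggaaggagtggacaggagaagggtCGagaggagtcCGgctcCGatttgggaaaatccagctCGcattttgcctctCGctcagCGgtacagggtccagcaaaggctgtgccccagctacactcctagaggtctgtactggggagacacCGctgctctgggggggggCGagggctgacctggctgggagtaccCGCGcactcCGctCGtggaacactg
Tet2 listed start, marked, chr3:133544391-133544640: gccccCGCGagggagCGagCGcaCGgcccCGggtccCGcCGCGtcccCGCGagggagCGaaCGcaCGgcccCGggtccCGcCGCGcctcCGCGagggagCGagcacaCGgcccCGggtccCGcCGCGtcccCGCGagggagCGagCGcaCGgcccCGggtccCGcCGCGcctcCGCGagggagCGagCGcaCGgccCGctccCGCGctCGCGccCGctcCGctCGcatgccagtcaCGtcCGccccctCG
Tet3 listed start, unmarked, chr6:83441679-83441928: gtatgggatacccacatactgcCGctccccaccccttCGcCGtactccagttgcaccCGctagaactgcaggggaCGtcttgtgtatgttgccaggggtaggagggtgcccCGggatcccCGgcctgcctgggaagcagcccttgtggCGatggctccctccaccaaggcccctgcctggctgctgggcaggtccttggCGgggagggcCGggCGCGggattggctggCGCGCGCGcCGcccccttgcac
The Dnmt1 outermost window holds few capitals and the Tet2 window is dense with them in repeated blocks, while Tet1 and Tet3, both unmarked, lie between these extremes.

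Marker genes were read first, as a check of the labelled cell type. At the 5′ end, 11 of 12 erythroid markers were marked, and all 12 were when listed starts counted. None of 6 granulocyte and macrophage markers and none of 6 lymphocyte markers was marked, and 1 of 5 fibroblast and stroma markers was, at an enrichment value of 5.17 ± 0.931. Some of the 11 erythroid markers had lower values than that, down to 3.97 ± 0.209 and 4.24 ± 0.384, beside a median of 16.4 for the 11. Replicate 1 held 48026 peaks and replicate 2 held 46950. The peak lists carry no read counts, so depth is unknown and no counting interval can be given. In bulk chromatin, more cells with the mark and more mark per cell cannot be told apart.

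Each start is described by a height and by a width. The enrichment value is the authors' own signal value of the strongest peak within 1000 bp, on a scale they do not state. The domain width is that of the widest run of peaks that reaches the window, joined across gaps of up to 1000 bp. Means are given ± SD over the 2 replicates (n = 2 throughout), which takes both peak sets to be on the same scale. Over all marked genes the median enrichment value was 13.2, with the middle 50% between 10.8 and 15.7, and the median width was 2258 bp, with the middle 50% between 1702 and 3015.5 bp.

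**Figure D1:**
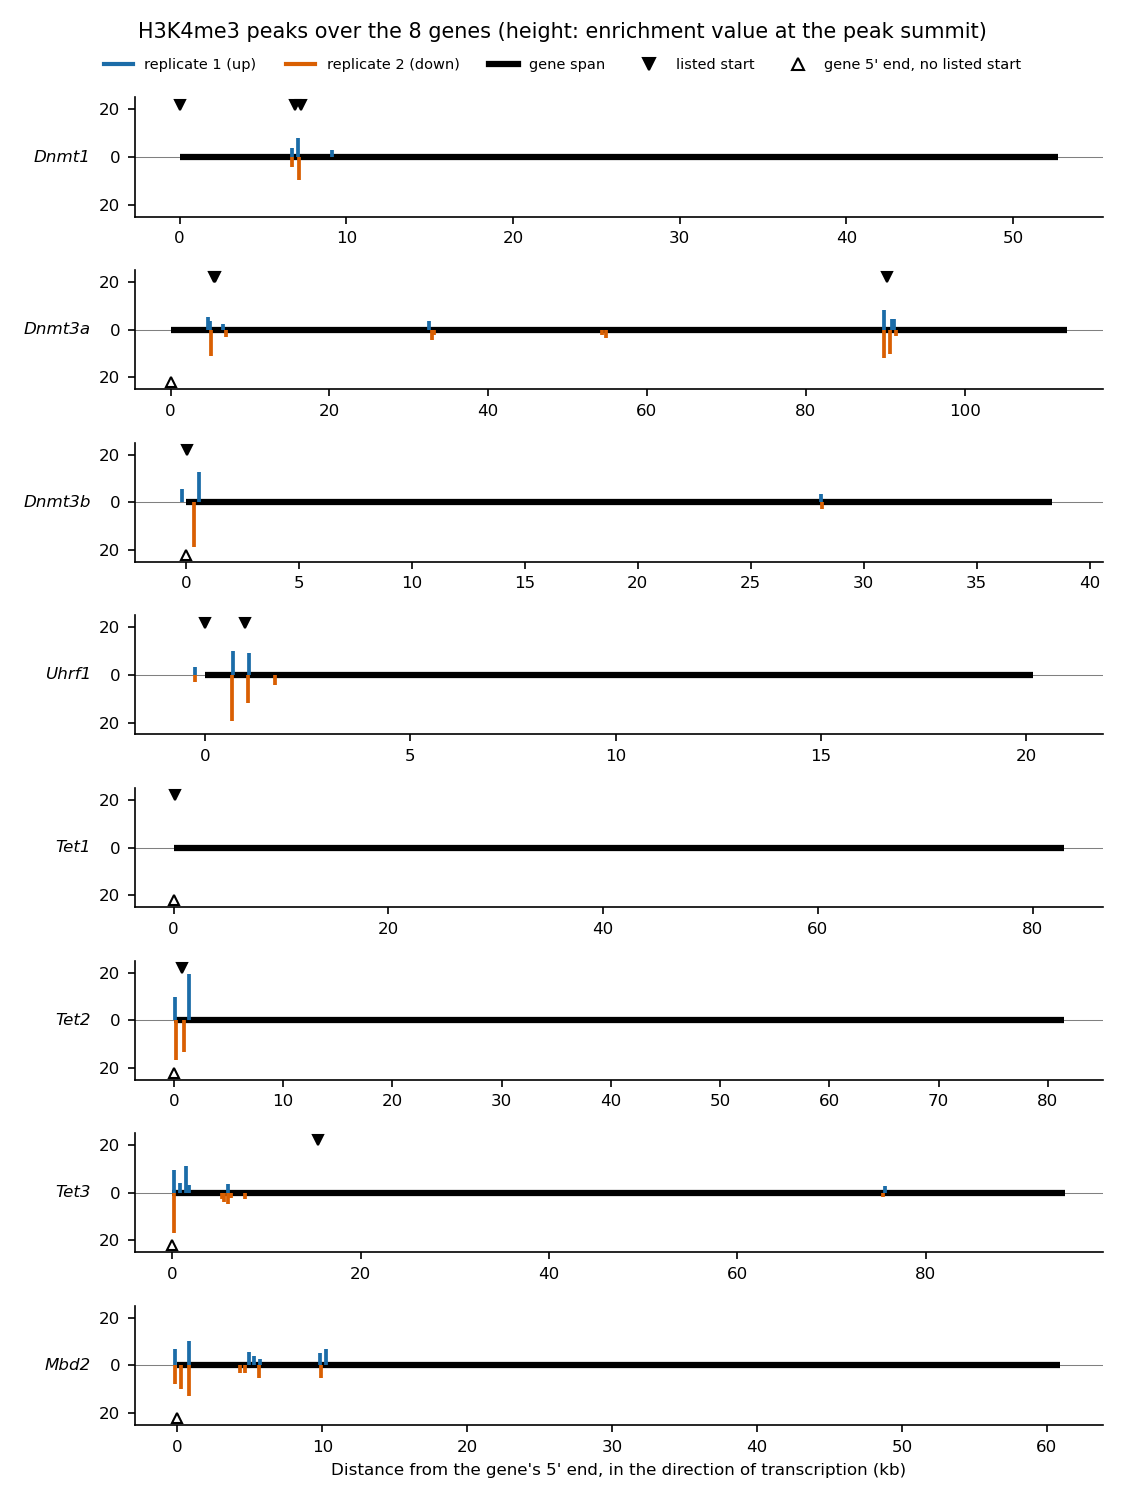
Enrichment value of every deposited peak over each of the 8 genes (vertical axis, replicate 1 upwards and replicate 2 downwards) against the distance of its summit from the gene's 5′ end in kb (horizontal axis), with gene spans as black bars and starts as triangles. Dnmt1 and Dnmt3a have their tallest peaks inside the gene, Tet1 has none, and the other 5 genes have theirs within about 2 kb of the 5′ end.

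Dnmt1, the maintenance methyltransferase (chromosome 9, 20907206 to 20959888, minus strand), was marked about 7 kb inside its outermost annotated end. The starts 6909 and 7265 bp inside, at 20952979 and 20952623, share a single domain with an enrichment value of 7.91 in replicate 1 and 9.76 in replicate 2, or 8.83 ± 1.31. The domain was 2577 and 2337 bp wide, or 2457 ± 170 bp. Both values are below the median of marked genes and the width is above it. The outermost start at 20959888 had no peak within 1000 bp in either replicate, and the nearest peak lay 6614 bp away in replicate 1 and 1905 bp away in replicate 2. Dnmt1 is known to use alternative first exons in somatic cells and in oocytes, and which transcript each start belongs to was not analysed here.

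The deposited measures place Dnmt1 at opposite ends of the marked genes. By enrichment value its mean exceeded that of only 11.2% of the 10654 genes marked at some start, the lowest of the 7 marked genes of the group. By the highest deposited −log10 q at a start, 88.0 in replicate 1 and 126.9 in replicate 2, its mean of 107.5 ± 27.5 exceeded that of 96.7% of those genes, whose median was 65.7. Tet2 followed at 86.8 ± 0.0504 (84.4%), with 86.9 in replicate 1 and 86.8 in replicate 2. Dnmt1 was the highest of the 7 in each replicate on this measure (the next were Tet2 in replicate 1 and Uhrf1 in replicate 2, at 94.3). The other 5 lay below the median on this measure, from 63.8 ± 43.1 for Uhrf1 to 21.9 ± 7.73 for Dnmt3a (6.23%). Why the 2 measures differ was not tested.

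Uhrf1, the ubiquitin ligase that binds hemimethylated CpG and recruits Dnmt1 (chromosome 17, 56303337 to 56323486, plus strand), was marked over both of its listed starts, which lie 976 bp apart. Its strongest peak had an enrichment value of 10.02 in replicate 1 and 19.3 in replicate 2, or 14.7 ± 6.59. This is the largest gap between replicates among the 5 genes marked at the 5′ end. Replicate 1 put Uhrf1 above 28.8% of marked genes and replicate 2 above 90.1%. A second peak over the inner start at 56304313 had values of 9.26 and 11.6, so the replicates differed less there. The joined domain was 1961 and 2142 bp wide, or 2051.5 ± 128 bp, close to the median.

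The de novo methyltransferase Dnmt3b (chromosome 2, 153649411 to 153687730, plus strand) had the second highest value and the narrowest domain of the 5. Its enrichment value was 12.7 in replicate 1 and 18.8 in replicate 2, or 15.8 ± 4.35, and its domain was 1449 and 1640 bp wide, or 1544.5 ± 135 bp. Only 18.9% of marked genes had a narrower domain, while 75.1% had a lower enrichment value. With a gap of 0 bp, Uhrf1 (807.5 bp) was narrower than Dnmt3b (1253 bp). In replicate 2 a single peak ran across the start. In replicate 1 it was split into a weaker peak upstream (5.43) and the main peak downstream, with the start between them. A weak peak of both replicates, 3.61 and 2.96, lay about 28 kb inside the gene.

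Dnmt3a, the other de novo enzyme (chromosome 12, 3801559 to 3914443, plus strand), was marked at 2 separate places, neither of them its outermost end. Peaks were nearest to that end at 4591 bp in replicate 1 and 4449 bp in replicate 2. The stronger place was an internal start 90185 bp inside, at 3891744, with an enrichment value of 8.27 and 11.8, or 10.03 ± 2.49, and a domain of 1925 and 2388 bp. The weaker place held the starts 5421 and 5601 bp inside, with 5.24 and 10.995, or 8.12 ± 4.07. The replicates' values at the outer and inner places overlap. Dnmt3a is known to make a long and a short protein from different promoters, the short one from within the gene.

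The outer Dnmt3a place differed most in shape between replicates. Replicate 2 had 1 peak of 2347 bp over both starts, within a domain of 2733 bp. Replicate 1 had only short peaks on either side, of 215, 167 and 213 bp, and the domain at the start was 520 bp wide. The nearest of them lay 311 bp from the start at 3806980. The mark at this place thus rests on flanking peaks in replicate 1 and on a peak over the start in replicate 2. When the replicates' peaks had to overlap by 50% of both, the outer place was no longer marked and the internal start was. Between the 2 places, a weak peak of both replicates about 33 kb inside had values of 3.44 and 4.23, and 2 weak peaks near 55 kb, of 2.31 and 3.70, were in replicate 2 alone.

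Among the erasers, Tet2 had the highest mean enrichment value and the widest mean domain of the 7 marked genes, Tet3 was close to the median and Tet1 had no peak. Tet2 (chromosome 3, 133463677 to 133545136, minus strand) had a value of 19.4 in replicate 1 and 16.9 in replicate 2, or 18.2 ± 1.77, above 89.9% of marked genes. Its domain was 2953 and 3298 bp wide, or 3125.5 ± 244 bp, wider than that of 77.6% of marked genes. The strongest peak was not the same one in each replicate. The peak at the 5′ end had 9.67 and 16.9, and the peak over the listed start 746 bp inside had 19.4 and 13.5, so the replicates rank the 2 peaks in opposite order. The first place of Tet2 in height depended on the setting. In the pooled and replicated sets it had 15.1, below Uhrf1 (15.5) and Dnmt3b (15.3). With a window of 500 bp it had 13.3, below Dnmt3b (15.8) and Uhrf1 (14.7). In replicate 2 alone, Uhrf1 (19.3) and Dnmt3b (18.8) were also above it.

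Tet3 (chromosome 6, 83362373 to 83457208, minus strand) was marked at its outermost end and not at its listed start. At the 5′ end its value was 9.67 in replicate 1 and 16.7 in replicate 2, or 13.2 ± 4.95, above 49.4% of marked genes. The domain was 2549 and 2393 bp wide, or 2471 ± 110 bp. When the replicates' peaks had to overlap by 50% of both, the 5′ end was no longer marked and the strongest peak over the gene fell from 13.9 to 4.19. Replicate 2 called it as 1 peak, and replicate 1 as 4 peaks, the strongest of which (11.2) had its summit 1457 bp inside the gene. The listed start at 83441678, which is 15530 bp inside, had no peak nearer than 9510 bp in replicate 1 and 7696 bp in replicate 2. Weak peaks of both replicates lay about 6 kb inside, up to 3.58 and 4.81, and about 76 kb inside, at 2.67 and 1.85.

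Tet1 (chromosome 10, 62804570 to 62887469, minus strand) had no peak of either replicate, of the pooled set or of the replicated set over its 82900 bp or 1000 bp around them. The nearest peak to its 5′ end lay 32184 bp away in replicate 1 and 31440 bp away in replicate 2. Long genes without any peak were not rare. Of 3095 genes of at least 80000 bp, 723 (23.4%) had no peak of either replicate, against 8461 (39.3%) of all genes. Absence from the lists means a signal below the authors' threshold, whose level was not stated.

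Mbd2, the methyl-CpG reader (chromosome 18, 70568225 to 70629134, plus strand), had the lowest mean enrichment value of the 5 and a width near the median. Its value was 10.4 in replicate 1 and 12.8 in replicate 2, or 11.6 ± 1.67, above 32.0% of marked genes. The domain was 2343 and 2538 bp wide, or 2440.5 ± 138 bp. The highest peak lay downstream, with its summit 814 and 805 bp inside the gene. It began 578 and 545 bp inside, so a window of 500 bp missed it and gave 8.44 ± 2.03. Further peaks followed inside the gene. Groups of shared peaks 4 to 6 kb inside (up to 5.77 and 5.13) and 9 to 11 kb inside (up to 6.79 and 5.47) brought its total to 7 peaks in each replicate, covering 3617 and 3807 bp.

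By mean enrichment value the order was Tet2, Dnmt3b, Uhrf1, Tet3 and Mbd2, with Dnmt3a and Dnmt1 last when every start counted. In 0 of the 4 neighbouring pairs, and in 0 of 6 with Dnmt3a and Dnmt1 included, did the replicates of the higher gene lie wholly above those of the lower. Neighbours in height thus did not differ beyond their spread, Tet2 and Dnmt3b included, and a length-weighted mean over the peaks put Dnmt3b first. Some genes further apart in the order did. Both replicates of Tet2 lay above those of Tet3, Mbd2, Dnmt3a and Dnmt1, and both of Dnmt3b above those of Dnmt3a and Dnmt1. Both of Uhrf1 and both of Mbd2 lay above those of Dnmt1. The margins of Tet2 over Tet3 (16.9 against 16.7) and of Uhrf1 over Dnmt1 (10.02 against 9.76) were narrow. Width separated neighbours better. In 3 of 4 neighbouring pairs the replicates did not overlap, namely Tet2 over Tet3, Mbd2 over Uhrf1, and Uhrf1 over Dnmt3b, whereas Tet3 and Mbd2 overlapped. With Dnmt1 and Dnmt3a added, it was 2 of 6 pairs. With only touching peaks joined it was 1 of 4, and with gaps of up to 3000 bp joined Mbd2, at 8697.5 bp, was wider than Tet2.

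**Figure D2:**
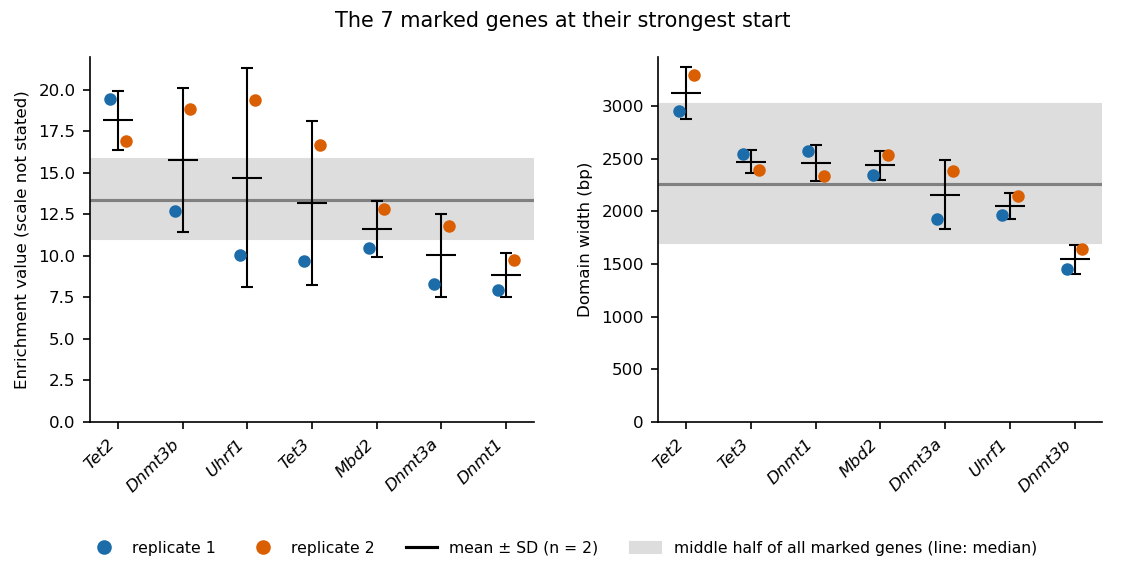
Enrichment value (left) and domain width in bp (right) of the 7 marked genes at their strongest start, as 1 point per replicate with the mean ± SD; the grey band spans the middle 50% of all marked genes and the grey line is their median. Replicate 2 is above replicate 1 in height for all but Tet2, while the widths of each gene lie closer together.

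Replicate 2 tended to have the higher value across the genome. It did so in 63.8% of all genes marked at some start, and in 6 of the 7 marked genes here, all but Tet2. The count for the 7 was not tested and is not read as a trait of theirs. The log2 ratio of replicate 2 to replicate 1 was 0.95 for Uhrf1, 0.79 for Tet3, 0.57 for Dnmt3b, 0.51 for Dnmt3a, 0.30 for Dnmt1, 0.29 for Mbd2 and −0.20 for Tet2. Over all genes marked at some start its median was 0.16 and its SD 0.47. Only Uhrf1 and Tet3 lay more than 1 SD from that median on the high side. The difference for Uhrf1 was larger than that of 94.5% of genes marked at the 5′ end, and that for Tet3 larger than 89.6%. Widths agreed better across the genome too, with an SD of 0.33 for the log2 width ratio.

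Several starts lay in a gap between peaks. The Dnmt1 start at 20952979 was 73 and 66 bp from the nearest peak, the internal Dnmt3a start 71 and 23 bp, and the Mbd2 5′ end 82 and 83 bp. The first Uhrf1 start was 44 bp outside a peak in replicate 1 and inside one in replicate 2. In each case peaks lay on both sides. Of 12337 marked listed starts in the genome, 3591 (29.1%) were likewise uncovered in both replicates and 6008 (48.7%) covered in both. No other protein-coding gene's annotated start lay inside the domain of any of the 7 genes. Whether a neighbour's start lay within 1000 bp outside a domain was not examined.

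CpG content was compared at the 12 listed starts, over 300 bases each (250 before and 50 after the start). The measure is CpG observed over expected, the CpG count divided by that expected from the window's C and G. All 32851 listed starts were ranked by it and split into 10 groups of about equal size, group 1 being the poorest. The share marked climbed from 3.81% in group 1 to 84.0% in group 10, with 37.6% over all starts. Their median ratio was 0.384, at 0.774 for marked and 0.234 for unmarked starts.

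The unmarked outermost Dnmt1 start had 2 CpG and a ratio of 0.101, in group 2, where 6.45% of starts were marked. The marked inner starts had 0.500 (12 CpG, group 6) and 0.910 (33 CpG, group 9). Both of these starts lay inside the same domain. Tet2 was the richest of the 12, with 57 CpG and a ratio of 1.17, above 99.2% of all starts. The outer Dnmt3a starts had 0.964 and 1.06, in group 10, and the internal Dnmt3a start had 0.468 in group 6. The outer starts had the lowest mean enrichment value of any marked start here, 8.12 ± 4.07. In replicate 2 alone their value (10.995) was above that of the marked Dnmt1 starts (9.76). Dnmt3b had 0.694 in group 8, and Uhrf1 had 0.472 and 0.959, in groups 6 and 10.

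Tet1 and the listed Tet3 start were unmarked starts of moderate CpG content. Tet1 had 17 CpG and a ratio of 0.607, and Tet3 had 22 and 0.577. Both fell in group 7, where 55.9% of starts were marked. Their ratios were higher than those of 3 marked starts of the group, the first Uhrf1 start, the inner Dnmt1 start at 20952979 and the internal Dnmt3a start. Ranked by CpG alone, marked and unmarked starts of these genes thus interleave. The windows of Dnmt1 and Uhrf1 with lower ratios share their domain with a CpG-richer start of the same gene.

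**Figure D3:**
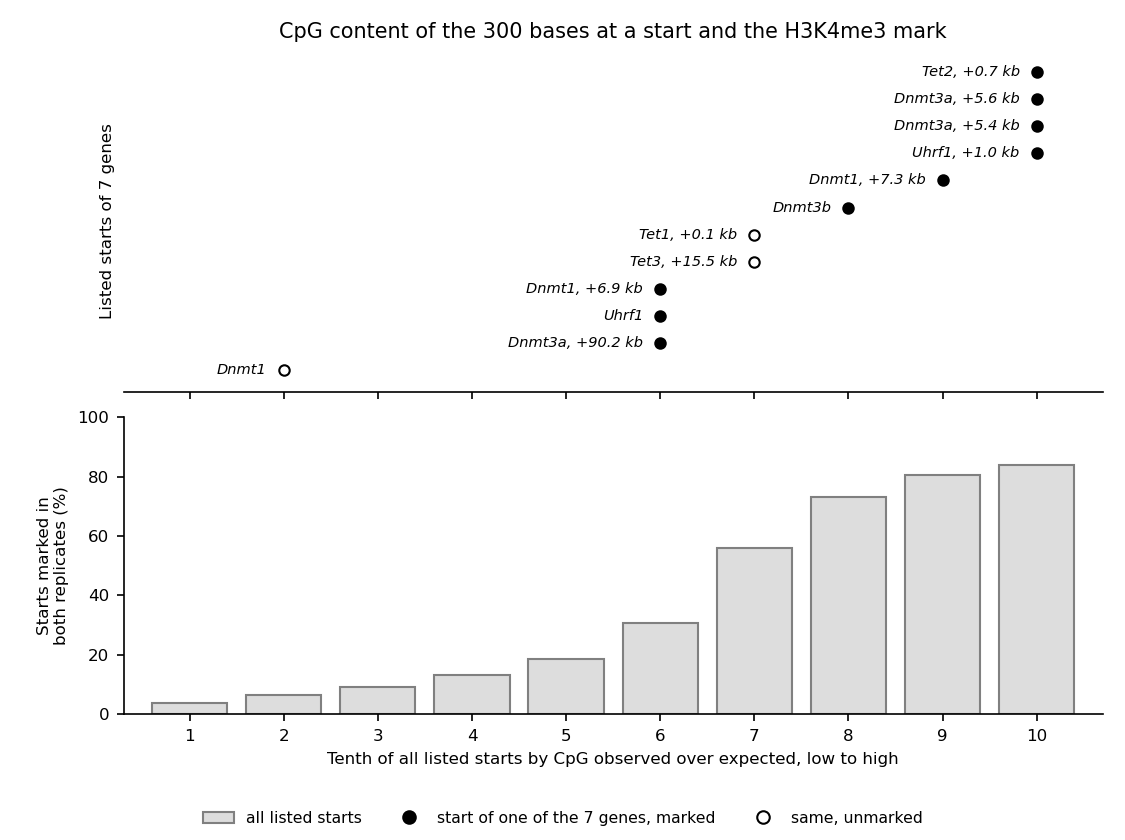
The 12 listed starts of 7 genes (upper panel, filled when marked in both replicates, with the distance inside the gene in kb) placed by their group among all listed starts ranked by CpG observed over expected, and the percentage of all listed starts marked in each group (lower panel, bars from 0). The 3 open points are the outermost Dnmt1 start in group 2 and the Tet1 and Tet3 starts in group 7.

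Short motifs were counted on both strands of the same 300 bases, each match being counted even where motifs overlap. TTTNNCGC, letters bound by E2F factors that drive S-phase genes, occurred in 5.17% of all listed promoters and in 8.81% of marked ones. Among the 12 windows they were found in the CpG-rich Dnmt1 window (3 matches) and in both Uhrf1 windows (1 each), the genes of replication-coupled upkeep, and in none of the other 9. The motif of NRF1 occurred once at each of the 2 marked Dnmt1 starts, and in 4.60% of all promoters and 10.6% of marked ones. CCAAT, in 37.4% of promoters, occurred at both Uhrf1 starts (3 and 2), the Tet3 start (1) and the Dnmt1 starts at 20959888 (5) and 20952623 (3). GGGCGG, in 35.7% of promoters and 63.9% of marked ones, was most frequent at the outer Dnmt3a starts (6 and 7), whose windows overlap and share matches. CACGTG (7.15%) occurred once, at the internal Dnmt3a start. No match to CCGGAAG (8.86%), AGATAA (11.2%) or TATAAA (13.6%) was present in any of the 12 windows, which says only that these letters are not in them.

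A peak set of the same series on the older build mm9 (the older set) placed the mark at most of the same genes. Coming from the same series, it is not independent of the replicates. Each of the 12 sequence windows matched once in NCBIM37, so the starts could be placed there without converting coordinates. With the GENCODE M1 genes of that build, 6 of the 8 genes were marked within 1000 bp of an annotated 5′ end, all but Tet1 and Tet3, beside 44.8% of 22225 protein-coding genes there. The Dnmt1 peak (mm9, chromosome 9, 20755535 to 20757744, value 3.94) covered the 5′ untranslated region, exon 1, coding sequence and intron. Of 4 peaks in Dnmt3a, the strongest (3890834 to 3891617, value 4.56) lay in an intron just upstream of the internal start, and another (3806085 to 3807510, value 2.96) covered an exon 1. Tet2 had the highest value of the 8 genes in this set, 4.70, with a peak of 3459 bp (133205170 to 133208628) over exon 1 and the adjacent intron.

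Uhrf1 (3.83) and Dnmt3b (3.90) had 1 peak each over exon 1 and intron, and Mbd2 (1.90) had 1 over exons 1 and 2 and the intron. Tet1 had none, and its listed start falls in an intron of the M1 gene, 7310 bp from the nearest M1 start. No peak overlapped Tet3 as M1 draws it, where the listed start is the start of exon 1. A peak with a value of 2.60 lay 13630 to 16064 bp upstream of that start, which on mm10 is the region of the outermost Tet3 end. The call for Tet3 thus depends on which end of the gene is annotated. Values of this set are on their own scale and were not set against those of the replicates.

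The wider pathway was marked at most 5′ ends. Of 66 further genes in 7 lists, 56 (84.8%) were marked at the 5′ end, 59 at the 5′ end or a listed start and 62 somewhere over the gene, beside 47.1%, 49.5% and 57.9% of all genes. The median enrichment value of the 56 was 13.6, against 13.2 for all marked genes and 14.7 for the 5 of the 8. Median widths were 2843.5, 2258 and 2440.5 bp. The lists were not tested, and housekeeping genes, which many of them are, were not set apart.

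All 11 subunits of NuRD, the complex that Mbd2 brings to methylated DNA, were marked, with a median of 16.7. Gatad2a, a scaffold subunit, had 21.1 and 24.4, or 22.8 ± 2.28, and the helicase Chd4 had 17.6 and 23.1, or 20.3 ± 3.88. Both stood above the 12.8 that Mbd2 reached in replicate 2. Of 10 other genes listed as methyl-CpG readers, 9 were marked, with a median of 10.9, and 5 of the 9 had a lower mean than Mbd2. Whether each of them, Mbd5 included, binds methylated CpG was not examined here. Mbd5 had 21.996 and 16.1, or 19.1 ± 4.15. The unmarked reader, Zbtb38, had 17.9 and 16.9 at a listed start 11825 bp inside. The replicates of Gatad2a, Chd4 and Mbd5 each lay wholly above those of Mbd2.

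Of 9 partners of maintenance methylation, 8 were marked. Pcna, the replication clamp that holds Dnmt1 at the fork, had 26.5 and 27.5, or 27.0 ± 0.699, above 99.8% of marked genes. Cdca7, which recruits the remodeller Hells, had 14.2 and 17.7, or 15.95 ± 2.52. Dnmt1 and Uhrf1 had lower values than Pcna in each replicate. The unmarked partner Usp7, a deubiquitinase of Uhrf1 and Dnmt1, had 20.0 and 24.7 at a listed start 18725 bp inside.

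Partners of de novo methylation were marked in 5 of 8 genes, a share of 62.5%. Setd2, which writes the H3K36 mark that Dnmt3 enzymes read, had 26.8 and 27.6, or 27.2 ± 0.565, and the H3K9 methyltransferase Ehmt1 had 19.3 and 25.6, or 22.5 ± 4.49. Dnmt3l, the catalytically inactive cofactor of Dnmt3a and Dnmt3b, and Zfp57, which guards imprints, had no peak of both replicates over the gene. Nsd1, another H3K36 methyltransferase, had 8.42 and 13.9 about 3 kb inside.

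Partners of oxidation and base repair were marked in 12 of 17 genes. Ogt, a sugar transferase that binds Tet proteins, had 33.6 and 13.1, or 23.3 ± 14.5, and Apex1, an endonuclease of base repair, had 20.3 and 17.0, or 18.6 ± 2.38. The mean for Ogt rests on replicate 1, and its replicate 2 value is near the median of all genes. Idh2, which makes the cosubstrate of Tet enzymes, had 9.12 and 12.3 at a listed start 3258 bp inside. Cxxc5, a CpG-binding partner of Tet2, had 9.89 and 13.8 about 19 kb inside and 4.24 at its 5′ end in replicate 2 alone. Cxxc4, which also binds Tet2, and the glycosylase Neil2 had no peak of both replicates.

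All 6 readers of unmethylated CpG and all 5 genes of methyl donor supply were marked. Kmt2b, a CXXC protein that itself methylates H3K4, had 10.97 and 24.5, or 17.7 ± 9.56, and Kdm2b, a CXXC demethylase, had 14.4 and 20.1, or 17.2 ± 4.10. Mat2b, a subunit of the synthetase of S-adenosylmethionine, had 10.2 and 13.8, or 11.98 ± 2.51, and methionine synthase Mtr had 11.9 and 11.97, or 11.9 ± 0.0560. The methyl donor genes all had means below the median of marked genes, with the highest at 11.98.

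**Figure D4:**
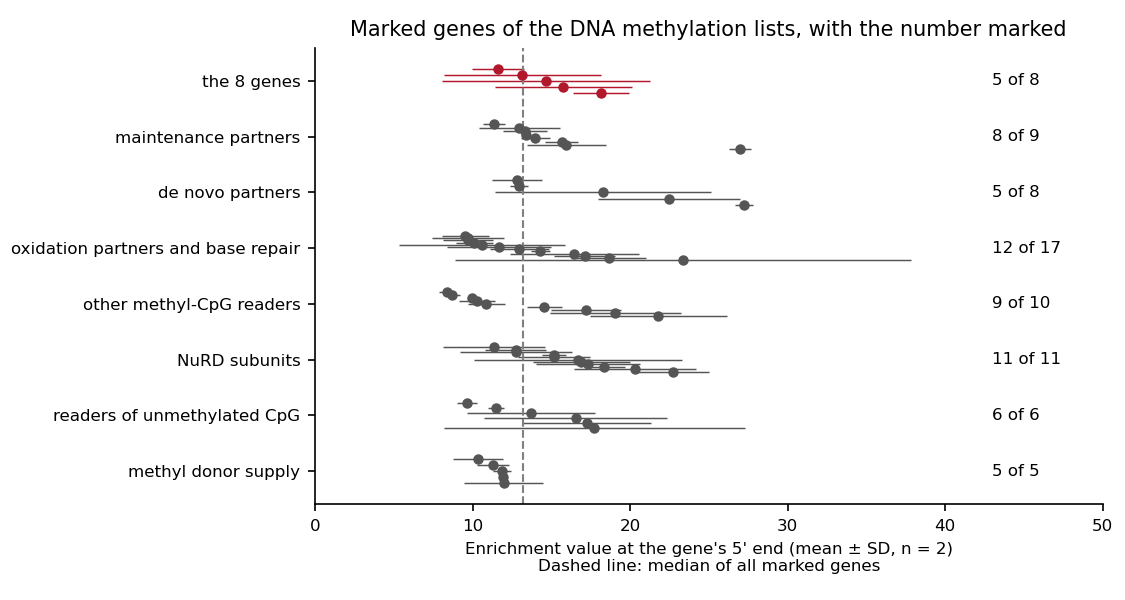
Enrichment value at the 5′ end (horizontal axis, mean ± SD, n = 2) of each marked gene, by list, with the number marked of the number measured at the right and the median of all marked genes as a dashed line. The 5 marked genes of the 8 (red) lie between 11.6 and 18.2, within the range of the other lists.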

How the data were processed

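H3K4me3 peaks of MEL cells were analysed in 2 biological replicates of 1 group. The authors deposited peak lists per replicate, from pooled alignments and of replicated peaks on mm10, and a list on mm9, per the notes deposited beside them. The mm9 list is called the older set here, after its build. Each peak has the authors' signal value (a score, here the enrichment value), deposited −log10 p and q values and a deposited summit offset (an other unit, in bp). Aligner, peak caller and threshold are not given in the sources used here. Depth, and the precision it would give, is unknown because the peak lists carry no reads.

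Genes and starts came from RefSeq tables of GRCm38.p6. Of 21887 protein-coding genes on chromosomes 1 to 19, X and Y, 21536 had a strand, 17492 from the promoter table and 4044 from GENCODE M1, among them Mbd2. Marking required an overlap of at least 1 bp. The 8 genes and the lists were chosen with earlier results of these data known. Named are the 8 genes and, of each further list, the 2 marked genes with the highest mean value and every unmarked gene; some of these are not reported here. Counting every listed start, and ranking by −log10 q, were chosen after seeing the data. The marking rule was tested on simulated data. Alternatives were windows of 500 and 2000 bp, −log10 q of at least 2 and 5, gaps of 0 and 3000 bp, a reciprocal overlap of 50%, −log10 p or a length-weighted mean as the measure, the pooled, replicated and older sets, the whole gene, and leaving out each replicate. Python 3.11.15, pandas 2.3.3 and numpy 2.4.6 were used.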

Additional observations from a re-analysis of the deposited data

How the results depend on the processing

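The number of the 8 genes marked at the 5′ end was 5 with either window, with both −log10 q minimums, in the pooled and replicated sets and without either replicate. It was 4 when the replicates' peaks had to overlap by 50% of both, which removed Tet3 (and the outer starts of Dnmt3a), 6 in the older set and 7 over the whole gene or with every listed start. Of all genes, 43.2% were marked with the overlap of 50%, against 47.1% as reported. In the settings that gave 5, the share lay between 45.6% (500 bp) and 48.7% (2000 bp). It was 44.8% in the older set, 57.9% over the whole gene and 49.5% with every listed start. The number marked among the 66 further genes ranged from 53 to 62. By width, 3 of 4 neighbouring pairs did not overlap as reported, 1 with a gap of 0 bp and 4 with a gap of 3000 bp, where Mbd2 became the widest at 8697.5 bp. No alternative measure of height separated any neighbouring pair (0 of 4). Single values moved by more than their SD in 4 of 87 comparisons of height and in 14 of 107 of width. Those of height were Tet2, at 13.3 with a window of 500 bp and 15.1 in the pooled and replicated sets, and Mbd2, at 8.44 with a window of 500 bp. Of those of width, 8 were with a gap of 0 bp. These totals overstate stability. Leaving out 1 of 2 replicates cannot move a mean by more than its SD, and starts sharing a domain were counted separately. The pooled and replicated sets gave the same value at each start compared, yet counted as separate settings. No paired analysis was possible because there is 1 group. With 2 replicates, unknown depth and no untreated cells analysed here, a change with DMSO cannot be given.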
